A study of Panonychus citri with 4 samples.

Results

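The comparison described here sets the adult library of the citrus red mite (Panonychus citri), a plant-feeding spider mite, against the nymph library, 2 of the 4 small RNA libraries of the study. The other 2 libraries, from embryos and larvae, are used as values set beside them. The nymph library came from 1500 whole animals, a mixture of protonymphs and deutonymphs, and the adult library from 1000 whole adults. The sources used here do not give the sex of the adults, the strain or the food plant. Each stage is 1 pooled library, so the values compare these libraries, no p-value is given, and the intervals cover counting error of the reads alone. Whole animals were extracted, so that fewer cells of a type and less RNA per cell cannot be told apart.

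Spider mites hatch as larvae, pass through a protonymph and a deutonymph separated by quiescent periods and moults, and then become adults that no longer moult and begin to reproduce. In arthropods these steps are driven by pulses of ecdysteroid hormones. miRNAs are short RNAs that lower the output of messenger RNAs, which they recognise mainly through the seed, bases 2 to 8 from the 5′ end. In Drosophila several miRNAs respond to ecdysone at the end of juvenile life, among them let-7, miR-34 and miR-8.

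The deposited lists held 1258698 miRNA reads for the nymph and 438409 for the adult. These were 21.2% (interval 21.1 to 21.2) and 7.41% (7.39 to 7.43) of library totals of 5944776 and 5918115 reads, so the adult library had 2.86-fold fewer listed miRNA reads at nearly the same total. Every level is therefore given on 2 scales, reads per 1000000 of the listed miRNA reads (listed RPM) and reads per 1000000 of the library total (library RPM). A library RPM ratio of adult over nymph is 0.350 times the listed ratio. Names of the same family whose sequences overlap without mismatch over at least 17 bases were added up as a sequence group, called by its most abundant name. Of 320 groups listed in either library, 86 had at least 30 reads over both and were compared. A group was called higher or lower when the 95% interval of its ratio lay wholly past 2-fold.

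The sequences the comparison turns on are printed 5′ to 3′ as the files give them, in DNA letters, with the seed in capitals. The first set holds some of the groups called higher in the adult in listed RPM, with the miR-252 variants that are needed to read their values:
miR-8-3p: tAATACTGtcaggtaaagatgtc
miR-252b-5p: cTAAGTAGtagtgccgcaggt
miR-252-5p: cTAAGTAGtagtgccgcag
miR-252c-5p: cTAAGTACtagcgccgcagga
miR-34-5p: tGGCAGTGtggttagctggtt
miR-317: tGAACACAgctggtggtatctca
miR-281-5p: aAGAGAGCttatccgtagacagt
The second set holds groups that were lower in the adult on both scales:
miR-92-3p: tATTGCACtcgtcccggcct
miR-92f-3p: tATTGCACtagtcccggcct
miR-278-3p: tCGGTGGGattttcgtccgtct
miR-263-5p: tATGGCACtggaagaattcacgg
miR-315: tTTTGATTgttgctcagaaggcg
miR-276: tAGGAACTtcataccatgct
miR-87: gTGAGCAAagtttcaggtgtgt
Among the sequences printed in these lines no seed is shared between the sets. The name miR-252b, also lower on both scales and described later, has the seed of miR-252-5p. Within the second set miR-92-3p and miR-92f-3p share theirs and differ over their 20 bases at C10A, counted from the 5′ end.

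In listed RPM 9 of 86 groups (10.5%) were higher in the adult and 9 (10.5%) lower. In library RPM 0 of 86 (0%) were higher and 39 (45.3%) lower. The 9 groups lower in listed RPM were also lower in library RPM, as the common factor of 0.350 between the scales requires. On both scales 0 groups were higher. The median adult over nymph ratio of the 86 groups was 1.26 in listed RPM and 0.440 in library RPM. The higher groups took 7.25% of listed reads in the nymph and 23.2% in the adult, and the lower groups 2.20% and 0.796%.

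**Figure D1:**
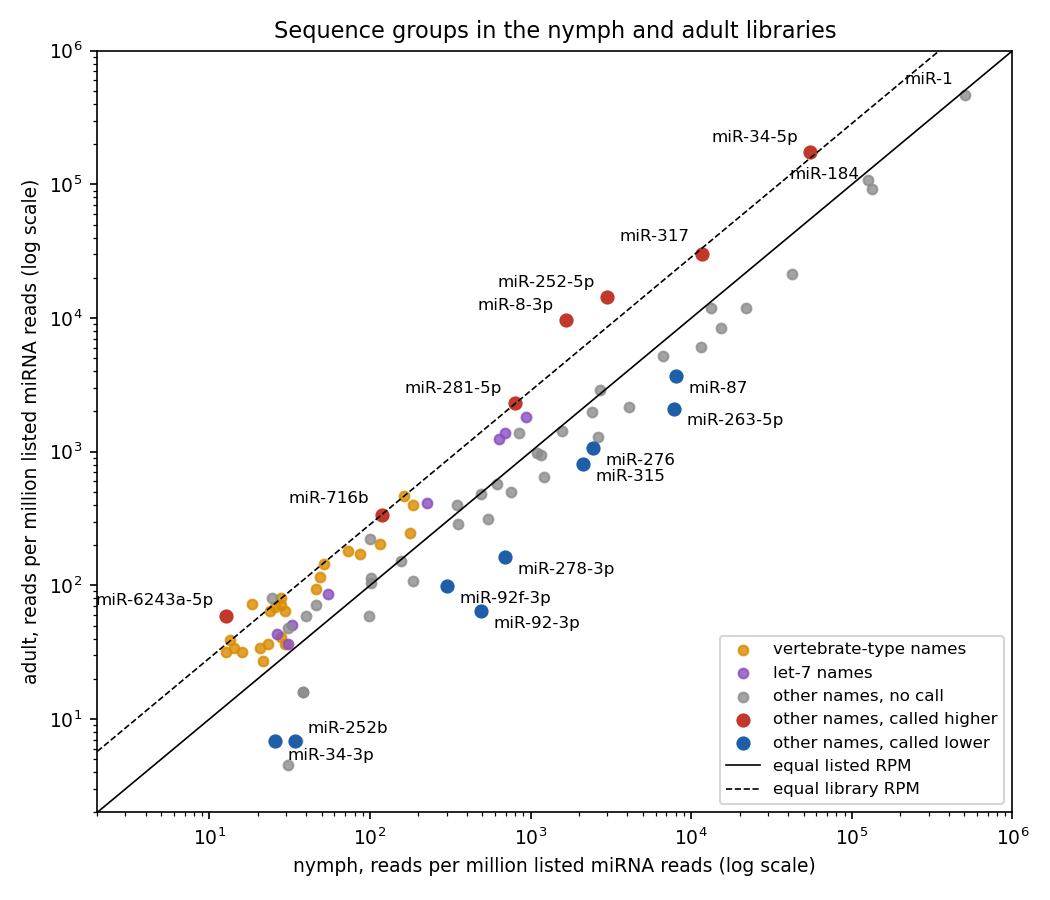
Listed RPM of the 86 sequence groups in the nymph (x axis) and adult (y axis) libraries, both on log scales, with groups without adult reads drawn at the level of 3 reads. Red groups were called higher and blue lower, orange and purple mark vertebrate-type and let-7 names whatever their call, and the higher groups lie close to or above the dashed line of equal library RPM, 2.86-fold above the solid line of equal listed RPM.

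Among the groups that gained share, miR-8-3p had the largest ratio. In Drosophila this miRNA promotes body growth through insulin signalling in the fat body. It had 122, 1025, 2079 and 4208 reads from embryo to adult, or 20.5, 172.5, 349.7 and 711.0 library RPM. Its level was higher at each successive stage on both scales, and its rank among groups went from 21 in the nymph to 10 in the adult. The adult over nymph ratio was 5.81 in listed RPM (5.51 to 6.13) and 2.03 in library RPM (1.93 to 2.14), the latter interval reaching below 2-fold.

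The miR-252-5p group, a miRNA of many invertebrates, followed the same course. Its listed RPM was 398.8, 1577, 3007 and 14388 from embryo to adult, and its library RPM was 16.6, 268.6, 636.7 and 1066. The adult over nymph ratio was 4.78 in listed RPM (4.595 to 4.98) and 1.67 in library RPM (1.61 to 1.74). The relative miR-252c-5p went the other way. It had 256.7 library RPM in the nymph and 48.2 in the adult, a ratio of 0.188 (0.165 to 0.213), and 0.536 in listed RPM (0.471 to 0.609), which was not called. The miR-252b-5p and miR-252c-5p sequences differ at G8C, T12C and T21A, counted from the 5′ end, so the seeds differ at their last base. The ratio of miR-252-5p to miR-252c-5p reads, which does not depend on the scale, was 5.82, 3.11, 2.48 and 22.1 from embryo to adult. It was 8.92-fold higher in the adult than in the nymph (Wald interval of the log ratio, 7.81 to 10.2). The miR-252-5p group was listed mainly as a 19-base variant in embryo and adult, where this ratio was higher. In larva and nymph it was listed mainly as a 21-base variant. Whether the listed variant affects the ratio was not tested.

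miR-34-5p made the largest gain in share. In Drosophila it is a miRNA of the adult brain linked to ageing, and its gene lies beside those of miR-277 and miR-317. It held 5.51% of listed reads in the nymph (rank 4) and 17.5% in the adult (rank 2), a gain of 11.98 percentage points. Its library RPM was 138.3, 6440, 11673 and 12957 from embryo to adult, so nymph and adult stood within 1.11-fold (1.10 to 1.12), against 3.17-fold in listed RPM (3.14 to 3.21). miR-317 stood at 49.3, 1064, 2458 and 2236 library RPM, with an adult over nymph ratio of 0.909 (0.888 to 0.931) and of 2.60 in listed RPM (2.54 to 2.66). No row of miR-277 was listed. Against miR-1, the most abundant miRNA, miR-34-5p was 0.108 in the nymph and 0.372 in the adult, a 3.43-fold higher ratio (3.39 to 3.47), and miR-317 was 0.0228 and 0.0641, or 2.81-fold higher (2.74 to 2.88).

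miR-281-5p, which regulates an ecdysone receptor isoform in the silkworm, had 1002 reads in the nymph and 1008 in the adult. Its library RPM was 4.03, 97.6, 168.6 and 170.3 from embryo to adult. The ratio of adult over nymph was 1.011 in library RPM (0.925 to 1.10) and 2.89 in listed RPM (2.64 to 3.16). The other 4 groups called higher in listed RPM had fewer reads. miR-716b had 149 nymph and 147 adult reads, and miR-6243a-5p 16 and 26. The other pair, miR-140-3p (205 and 203 reads) and miR-23a-3p (23 and 32 reads), are on the list of vertebrate-type families used here. The first pair are not on that list, which does not settle their origin. The library RPM ratios of these 4 were 0.991, 1.63, 0.995 and 1.40, each with an interval that held 1.

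**Figure D2:**
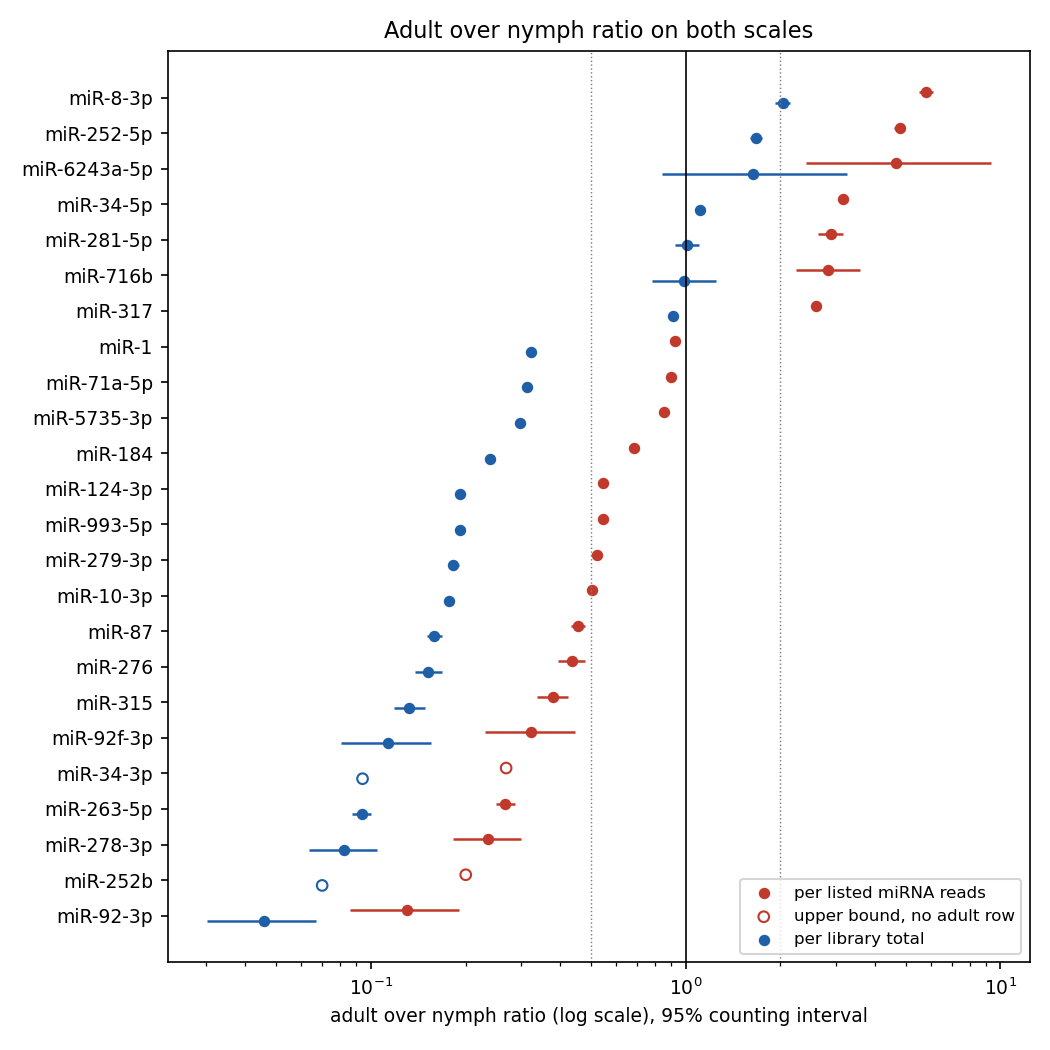
Adult over nymph ratio (log scale) in listed RPM (red) and library RPM (blue) for the called groups and the 10 most abundant groups of each library, vertebrate-type names left out, with 95% counting intervals and dotted lines at 2-fold. Open circles, labelled as upper bounds, are values with a missing adult row set to 3 reads. They are drawn without their interval, whose upper limit is higher. The groups miR-92-3p to miR-87, the lower part of the plot, lie below the 2-fold line on both scales.

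Vertebrate-type names as a class give a second view of the scale. Names from 24 vertebrate-type groups were compared, and their library RPM ratios had a median of 0.799 and ranged from 0.434 to 1.40, with 0 calls. Summed over all vertebrate-type names of the 4 libraries, compared or not, the reads stood at 232.1, 242.0, 325.0 and 239.4 library RPM from embryo to adult. The 8 compared let-7 groups had a median library RPM ratio of 0.605 with 0 calls, and the sum over all let-7 names, compared or not, stood at 384.4, 359.5, 558.5 and 374.4. In listed RPM the 2 medians were 2.28 and 1.73, with 2 of the 24 vertebrate-type groups and 0 of the 8 let-7 groups called higher. The remaining 54 groups had medians of 0.285 in library RPM and 0.814 in listed RPM, with 48 of the 54 below 1 in library RPM. The 6 at or above 1 were miR-34-5p, miR-252-5p, miR-8-3p, miR-281-5p, miR-29a and miR-6243a-5p. The vertebrate-type class follows a list of 125 families without miR-29, miR-716 and miR-6243. Names of vertebrate type may therefore remain among the 54. The source of the vertebrate-type reads was not tested. No plant-type family of the 36 looked for had a row in either library. The sources used here do not say whether the reference held plant miRNAs, so these rows cannot show whether ingested plant was present.

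The abundant miRNAs accounted for most of the lower miRNA content of the adult library. Listed reads stood at 211732 library RPM in the nymph and 74079 in the adult, a net fall of 137653. The muscle miRNA miR-1 (tGGAATGTaaagaagtatggag) stood at 107721 and 34857 library RPM, which was 52.9% of that fall. miR-184 (tGGACGGAgaactgataagggc), which acts in the Drosophila female germline, stood at 28435 and 6809, or 15.7%. The little-known miR-5735-3p (tGGACAACaggataatggcg) stood at 26610 and 7937, or 13.6%. As shares of the listed reads these 3 were closer. miR-1 held 50.9% in the nymph and 47.1% in the adult, miR-184 13.4% and 9.19%, and miR-5735-3p 12.6% and 10.7%, and all 3 ratios of listed RPM were without a call.

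The 9 groups lower on both scales were led by miR-92-3p, whose family maintains neural stem cells in Drosophila. It had 49458, 1382, 615 and 28 reads from embryo to adult, or 8301, 232.6, 103.5 and 4.73 library RPM. Each stage was below the one before. The adult was 7.65-fold below the nymph in listed RPM (5.24 to 11.6) and 21.9-fold in library RPM (15.0 to 33.2). miR-92f-3p stood at 257.3, 31.1, 64.1 and 7.27 library RPM, lowest in the adult, 3.09-fold below the nymph in listed RPM (2.25 to 4.33). The ratio of miR-92-3p to miR-92f-3p reads was 32.3, 7.47, 1.61 and 0.651 from embryo to adult. Its adult value, the only one below 1, rests on 28 and 43 reads. No interval was computed for it, so the order of the pair in the adult is uncertain. miR-315, an activator of Wingless signalling in Drosophila, stood at 13393, 784.2, 448.3 and 59.5 library RPM and was 2.64-fold lower in the adult in listed RPM (2.36 to 2.96) and 7.54-fold in library RPM (6.74 to 8.45).

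Both miR-315 and miR-92-3p led the embryo library. Their adult levels were the lowest of the 4 libraries on both scales. Whether adult animals carried embryos, and any part of these in the results, was not tested.

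miR-278-3p acts in energy balance in Drosophila. It had 55, 480, 867 and 71 reads from embryo to adult, and was 4.25-fold lower in the adult than in the nymph in listed RPM (3.34 to 5.50) and 12.2-fold in library RPM (9.54 to 15.7). The ratio of miR-8-3p to miR-278-3p reads was 2.22, 2.14, 2.40 and 59.3 from embryo to adult, near the same value in the first 3 libraries and 24.7-fold higher in the adult than in the nymph (19.3 to 31.7). The adult reads of the group nearly all belong to miR-278b-3p, which starts 1 base earlier and so has another seed. By seed, that of miR-278-3p had 867 nymph and 2 adult reads, and that of miR-278b-3p 0 and 69, so both the fold and the ratio to miR-8-3p join sequences of different seeds.

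The remaining groups lower on both scales include miRNAs known from the nervous system and sense organs. miR-263-5p, of a family that protects sensory bristles in Drosophila, stood at 169.7, 1051, 1657 and 155.1 library RPM, with the adult close to the embryo on this scale, and at 4072, 6167, 7827 and 2094 listed RPM, with the adult below the embryo. It was 3.74-fold lower than in the nymph in listed RPM (3.49 to 4.004) and 10.7-fold in library RPM (9.98 to 11.4). miR-87, needed for dendrite regrowth in Drosophila, stood at 8.06, 453.5, 1708 and 272.0 library RPM, highest in the nymph, and was 2.20-fold lower in the adult in listed RPM (2.08 to 2.32). miR-276, which tunes circadian and olfactory functions in Drosophila, stood at 9.57, 260.9, 516.3 and 78.7 library RPM and was 2.29-fold lower in listed RPM (2.08 to 2.53).

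The last 2 of the 9 groups had no adult row. miR-34-3p, the opposite arm of the miR-34 hairpin (aACCACTGattgcactgcccat), had 32 nymph reads. The name miR-252b (tTAAGTAGtagtgccgcaggta) had 43. With the adult row set to 3 reads they were 3.72-fold and 4.99-fold lower in listed RPM, and 10.6-fold and 14.3-fold in library RPM. The upper limits of their adult over nymph ratios were 0.351 and 0.257 in listed RPM. In library RPM these limits were 0.123 and 0.0900. miR-252b differs from the nymph variant miR-252b-5p at C1T and shares its seed. The similar name miR-87-3p (tTGAGCAAagtttcaggtgtgt), which differs from miR-87 at G1T, had 39 reads in the nymph and 2 in the adult as a group, a ratio of 0.147 in listed RPM with an interval (0.0172 to 0.569) too wide for a call. Whether these end differences are variants of the mite or arose in sequencing was not tested.

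**Figure D3:**
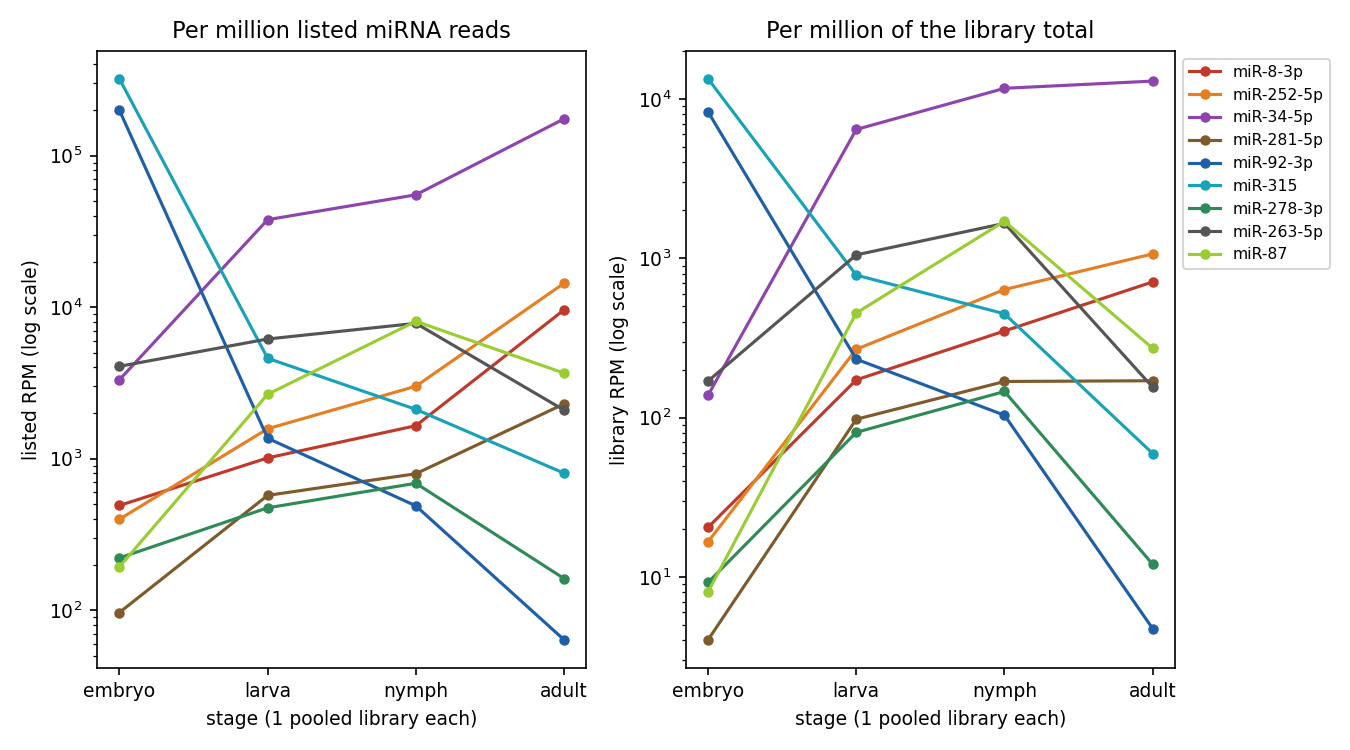
Levels of 9 sequence groups in the 4 libraries, from embryo to adult, in listed RPM (left) and library RPM (right), both on log scales, 1 pooled library per stage. miR-8-3p and miR-252-5p are higher at each successive stage, miR-92-3p and miR-315 lower, and miR-278-3p, miR-263-5p and miR-87 are highest in the nymph.

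Families were also gathered into lists by their known roles. Counts of calls are to be read against the 10.5% called in each direction in listed RPM and the 45.3% called lower in library RPM. All 39 lower calls in library RPM fell among the 54 groups classed as neither vertebrate-type nor let-7. These 54 had 7 higher and 9 lower calls in listed RPM, with medians of 0.814 in listed RPM and 0.285 in library RPM. Lists without vertebrate-type or let-7 groups are better read against these 54. In the ecdysone and moulting list 4 of 15 groups were higher in listed RPM (miR-8-3p, miR-252-5p, miR-34-5p and miR-281-5p). In it 2 were lower (miR-34-3p and miR-252b), both of which met the read minimum through nymph reads alone. In library RPM 0 were higher and 3 lower, and the median ratio was 0.632, against 0.440 over all groups. Of the 15 groups 8 bear let-7 names, among them let-7c-5p, whose library RPM ratio is the median of 0.632. The source of the let-7 reads was not tested. In the list of miR-34, miR-277 and miR-317, 2 of 3 groups were higher in listed RPM and 1 lower, as described.

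The neuron and sense organ list leaves out miR-34, described above from the adult brain of Drosophila. In listed RPM miR-34-5p was called higher and miR-34-3p lower. Of the 16 groups in the list 0 were higher in listed RPM and 3 lower. The median ratio was 0.592, against 1.26 over all groups and 0.814 over the 54 classed as neither vertebrate-type nor let-7. In library RPM 14 of the 16 were lower, with a median of 0.207, against 39 of those 54 and a median of 0.285. Among them the neuronal miR-124-3p group stood at 4615 library RPM in the nymph and 884.7 in the adult, a 5.22-fold difference (5.06 to 5.37), and 1.83-fold in listed RPM (1.77 to 1.88), which was not called. The 2 without a call in library RPM were miR-190-5p, with a ratio of 0.570 (0.515 to 0.630), and miR-7-3p. The Hox-cluster list, miR-10 and its relative miR-993, had 4 of 4 groups lower in library RPM with a median ratio of 0.189, and 0 of 4 called in listed RPM with a median of 0.539. In it miR-10-3p stood at 8911 library RPM in the nymph and 1578 in the adult. Its listed RPM ratio was 0.506 (0.495 to 0.518), at the edge of the 2-fold limit.

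In the muscle list, miR-1 and miR-133 were both lower in library RPM, by 3.09-fold (3.08 to 3.11) and 5.84-fold (5.34 to 6.401). Neither was called in listed RPM. miR-133 stood at 4.36, 87.4, 552.8 and 94.6 library RPM and at 104.7, 512.7, 2611 and 1277 listed RPM from embryo to adult, close in larva and adult on the first scale alone. The ratio of miR-133 to miR-1 reads was 0.000533, 0.00102, 0.00513 and 0.00271 from embryo to adult, so the nymph had the highest of the 4.

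The ovary and egg list, drawn from miRNAs with roles in insect reproduction, had 0 of 6 groups called in listed RPM, with a median ratio of 1.02. In library RPM 0 were higher and 5 lower, with a median of 0.357. The growth promoter bantam had 3409 nymph and 1259 adult reads, a listed RPM ratio of 1.06 (0.993 to 1.13) and a library RPM ratio of 0.371 (0.347 to 0.396). Both arms of miR-305, which acts in gut stem cells of Drosophila, had listed RPM intervals that held 1. miR-1175b-3p, of a family known from the mosquito gut, had a listed RPM ratio of 2.21 (1.68 to 2.90) and was the group of the list without a call on either scale. miR-989, miR-318, miR-309 and miR-1174 had no row in either library. In the insulin, growth and energy list 1 of 6 groups was higher in listed RPM (miR-8-3p), 1 lower (miR-278-3p) and 4 without a call, with a median ratio of 1.02. In library RPM 0 were higher and 5 lower, with a median of 0.357. This list and the ovary and egg list share bantam and both arms of miR-305, and their medians are the same. The miR-71/2/13 list had 0 of 3 groups called in listed RPM and 3 lower in library RPM, and the miR-92/25/310 list 2 of 3 lower on both scales. The other group, miR-25, bears a vertebrate-type name.

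The arms of a hairpin arise from the same transcript, and their ratio does not depend on the scale. Of 15 hairpins whose arms were paired by name, 9 had at least 30 reads on each arm, summed over nymph and adult, and in these 9 the same arm led in both libraries. The minor arms of miR-34 (32 and 0 reads) and miR-263b (44 and 3) passed this minimum through their nymph reads. In 7 of the 9 the intervals of the 5′ arm's share overlapped between nymph and adult. For miR-993 the 5′ arm took 79.0% of reads in the nymph (78.4 to 79.5) and 79.5% in the adult (78.3 to 80.6). For miR-305 it took 58.6% (55.6 to 61.6) and 54.8% (49.7 to 59.9), and for miR-9 31.7% (29.3 to 34.2) and 36.4% (31.3 to 41.7). The exceptions were miR-71, with 66.6% (66.0 to 67.2) and 69.6% (68.5 to 70.6), and miR-34. The 3′ arm of miR-34 took 32 of 69424 reads in the nymph, 0.0461% (0.0315 to 0.0651), and 0 of 76683 in the adult, where 3 reads would be 0.00391%.

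Which length variant was listed differed between the libraries for some groups and affects values by name. Of 28 groups with several variants and at least 100 reads in both libraries, 5 had another leading variant in the adult than in the nymph. The miR-252-5p group was listed as 3777 reads of the 21-base miR-252b-5p in the nymph, with no adult row, and as 6288 reads of the 19-base miR-252-5p in the adult, with no nymph row. The larva listed the 21-base form and the embryo the 19-base form, so the forms alternate between libraries and do not follow the stages in order. The miR-190-5p group was listed as 23 bases in larva and nymph (aGATATGTttgatattcttggtt) and as 20 bases in embryo and adult (aGATATGTttgatattcttg). The miR-124-3p group had 0 nymph reads of its 22-base variant, which made up 68.1% of the group in the embryo, 71.6% in the larva and 75.7% in the adult. The nymph listed 88.2% of the group as the 21-base variant. The 22-base variant (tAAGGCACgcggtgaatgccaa) ends with 1 base more than the 21-base variant (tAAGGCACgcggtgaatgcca). The miR-278-3p group had 826 nymph reads of its 22-base variant and none in the adult, where 69 of 71 reads belonged to the 18-base miR-278b-3p with its shifted seed, which had no nymph row. The sources used here do not say whether a row also counts reads of neighbouring lengths, so the joined groups carry the comparison.

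**Figure D4:**
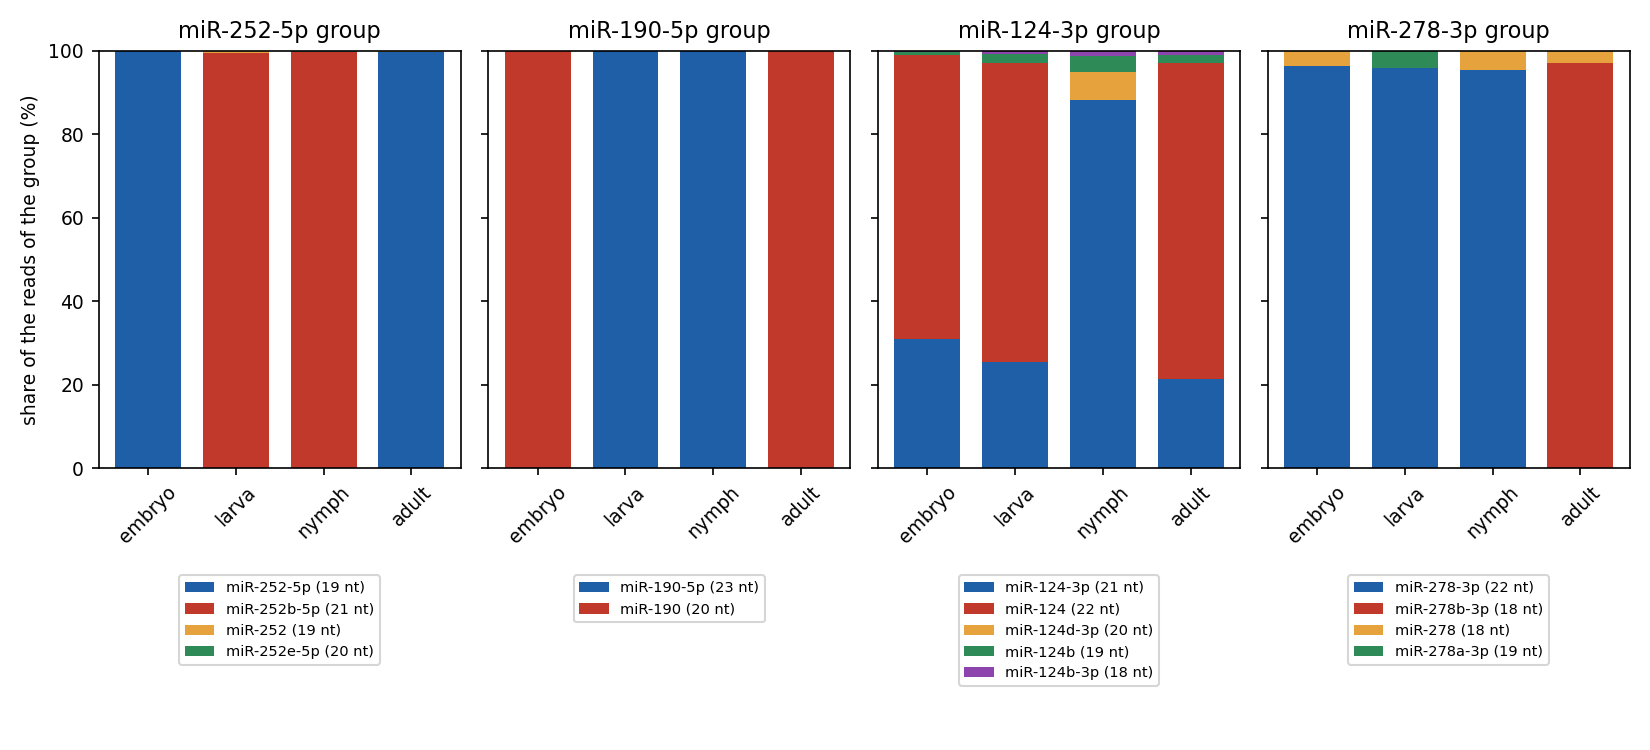
Share of the reads of 4 sequence groups (y axis, percent) held by each listed length variant in the 4 libraries. The leading variant of miR-252-5p, miR-190-5p and miR-124-3p in the nymph differs from that in the adult and that in the embryo, and the 18-base miR-278b-3p appears in the adult alone.

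By name, 17 of 113 names (15%) were higher in listed RPM and 24 (21.2%) lower, and for 23 of these 41 names a row was missing in either the nymph or the adult. In library RPM 7 names (6.19%) were higher and 59 (52.2%) lower. The nymph listed 346 names and the adult 270, of which 159 were common to both. Thinned to the listed reads of the adult, the nymph would list 255.7 names, and 212.5 groups against 224 in the adult. The 30 groups listed in the adult and not in the nymph had at most 3 reads each, so no well-measured group was found in the adult alone.

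The make-up of the reads shifted with the abundant groups. Variants of 22 bases took 63.7% of listed reads in the nymph and 53.3% in the adult, and those of 21 bases 8.92% and 15.9%, the length of miR-34-5p. The mean length was 21.4 and 21.3 bases. Sequences starting with T, the usual first base of miRNAs, took 93.8% and 95.1%, and those starting with G, led by miR-10-3p, 5.47% and 2.78%. Sequences starting with C, among them miR-252-5p, miR-252b-5p and miR-252c-5p, took 0.521% and 1.58%.

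Set beside the other libraries, the nymph stood highest of the 4 in library RPM for 66 of the 86 groups and the adult for 9, among them miR-34-5p, miR-252-5p, miR-8-3p and miR-281-5p. The adult was the lowest of the 4 for 24. In listed RPM the nymph was highest for 23, the adult for 15, and the adult lowest for 15. The listed miRNA share of the library total was 4.17%, 17.04%, 21.2% and 7.41% from embryo to adult.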

How the data were processed

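Per the labels' protocols, RNAs between 18 and 30 bases were selected on a 15% gel, and adapter-ligated cDNA was amplified by PCR for sequencing. The authors deposited, per the file headers, a whole-number read count for each known miRNA name with its sequence and a normalized value. Those deposited values are reads per 1000000 (RPM), since read count over value gave the same library total in every row. The sources used here do not give the reads in that total, the matching program, the reference or the build.

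Counts were analysed as deposited, with Python 3.11.15, SciPy 1.17.1, edgeR 4.0.16 (TMM factors) and DESeq2 1.42.0 (size factors). Ratios carry exact conditional binomial (Clopper-Pearson) 95% intervals, and shares binomial ones. Amplified reads are not independent molecules, so intervals and floors cover counting error alone. A missing row was set to 3 reads, which is 2.38 listed RPM in the nymph and 6.84 in the adult. The interval code was tested on simulated data. Names joined by at least 17 matching bases gave 366 groups from 594 names over the 4 libraries.

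The members, lists and tests were chosen with earlier results of these data known. Named groups follow a rule: every group called in listed RPM, the 10 with most reads in each library, the 10 lowest library RPM ratios, measured members of the moulting, ovary, muscle and miR-34 lists, and groups whose leading variant or arm differed. Others were chosen after their values were seen. Vertebrate-type and let-7 sequences are not printed. Alternatives covered scaling, read minimum, fold limit, joining, seed families and the leading variant.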

Additional observations from a re-analysis of the deposited data

How the results depend on the processing

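The counts of called groups depended on the scaling. Against 9 higher and 9 lower in listed RPM, library totals gave 0 and 39, median-of-ratios size factors 2 and 23, and TMM 3 and 21. An interval past 1.5-fold gave 22 and 18, one past 3-fold gave 3 and 4, and joining from an overlap of at least 20 bases gave 10 and 15. Leaving miR-1 out of the totals gave 9 and 11, no minimum of reads 10 and 9, an overlap of at least 15 bases 9 and 9, and seed families 10 and 10. Without groups classed as vertebrate-type or let-7, an alternative chosen after seeing the data, 7 and 9 were called. By name, 17 higher and 24 lower in listed RPM became 7 and 59 with library totals, 11 and 37 with median-of-ratios size factors and 11 and 37 with TMM. With no minimum 35 names were higher, past 1.5-fold 29 and past 3-fold 10. Of the called groups, 3 changed direction with library totals, to ratios of 0.909 for miR-317, 0.995 for miR-140-3p and 0.991 for miR-716b. With its leading variant alone miR-716b also changed direction, to 0.0578 with the adult row set to 3 reads (upper limit 0.0720). Of the 5 scalings, 4 called miR-8-3p and miR-252-5p higher, library totals being the exception. All 5 called the 9 lower groups lower. The other 4 scalings lower every listed RPM ratio by a common factor, so these lower calls could not be lost. Of these 9, miR-34-3p and miR-252b met the read minimum through nymph reads alone. With an overlap of at least 20 bases or the leading variant alone, the nymph and adult variants of miR-252-5p and miR-278-3p were kept apart. With the missing row set to 3 reads, miR-252-5p was then 6018-fold higher (lower limit 4893). On the same terms miR-278-3p moved from 0.235 to 0.0104 (upper limit 0.0129). No paired analysis was possible because each stage has 1 library. With 1 library per stage, the spread between animals or preparations cannot be measured, and at 30 reads a ratio's interval spans several fold.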
